A study of Mus musculus with 4 samples.

Results

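The tumour necrosis factor (TNF) superfamily was described in 4 RNA-seq libraries of mice that had received dextran sulfate sodium (DSS), an agent that injures the lining of the gut and is used to induce colitis. Members were taken from the table of FPKM values by gene symbol: every symbol that begins with Tnfsf or Tnfrsf, together with Tnf, Lta, Ltb, Fasl, Fas, Cd40, Cd40lg, Cd27, Cd70, Ltbr, Ngfr, Edar, Eda2r and Relt. This gave 46 of the 24421 genes in the table, 18 ligands and 28 receptors. The rule uses gene symbols and no measured value, but it was chosen with earlier results of these data known. FPKM stands for fragments scaled to transcript length and to the mapped fragments of a library, so levels of different genes can be set side by side per length. The mice compared were WT-139 and WT-140, both Usp25+/+, and KO-826 and KO-850, both Usp25-/-, so n is 2 per genotype. All 4 were C57BL/6 mice, 8 weeks old, that were given 2.5% DSS over 5 days and then plain water over 2 days, so both genotypes were treated and no untreated mouse was compared. Usp25 encodes a protease that removes ubiquitin from other proteins, and the labels do not say in which cells or at which age the gene is lost.

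Ligands of the superfamily are made as trimeric proteins on the cell surface, and several of them, TNF among them, are released when a protease cuts the stalk. Their receptors carry cysteine-rich repeats outside the cell; some hold a death domain inside it and can start apoptosis or necroptosis, while others bind TRAF adaptors and switch on NF-kappaB and MAP kinases. Ubiquitin chains are built on and removed from the receptor complexes at each step. In the gut, macrophages, neutrophils and lymphocytes are well-known sources of these ligands, and antibodies against TNF are used to treat inflammatory bowel disease.

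Usp25 was looked at first, as a check on the genotype labels. WT-139 had 38.5 FPKM and WT-140 16.6 FPKM, while KO-826 had 2.65 FPKM and KO-850 1.71 FPKM, so every library followed its genotype label. Of 13 genes of colon epithelium, 3 were listed at 0 in all mice (Cdx1, Aqp8 and Zg16) and 8 stayed below 1 FPKM in all mice, Cdx2, Muc2 and Car1 among them. Of the others, Lgals4, Krt20 and Guca2a were tested and were higher in both Usp25-/- mice, Lgals4 at 7.04 and 9.83 against 70.6 and 28.8 FPKM, and the list summed to 13.0 and 14.2 against 143 and 41.0 FPKM. All 12 genes of lung epithelium were present, with sums between 2397 and 5453 FPKM, and Sftpc, a surfactant protein, had its lowest value in WT-139 (339 FPKM) and 1376 to 2596 FPKM in the others. The samples are therefore called the libraries labelled colon. Mouse WT-139 stood apart: its correlation with the other libraries across genes was 0.876 to 0.890, against 0.933 to 0.968 among the others, and its neutrophil genes summed to 40471 FPKM against 713 FPKM in WT-140, 1993 FPKM in KO-826 and 1182 FPKM in KO-850. Every member is therefore given with its value in each mouse, in the order WT-139 and WT-140 against KO-826 and KO-850. In RNA from bulk tissue, fewer cells of a type and less RNA per cell cannot be told apart.

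A total of 29 members, 10 ligands and 19 receptors, reached 1 FPKM in at least 2 mice and were tested, and each of them reached it in at least 1 mouse of either genotype. None of them passed limma's test at an adjusted p of 0.05 (0 of 29, and 0 of 12103 genes in all, 0.0%), the smallest adjusted p being 0.968. Limma's adjusted p was also 0.968 for Usp25 itself, at a log2 difference of -3.07, so the test did not call even that gene. At an unadjusted p under 0.05 by limma there were 2 members, Tnfrsf23 and Tnf, against 400 genes or 3.3% of all tested. For 9 of the 29 members (31.0%) both Usp25-/- mice lay below both Usp25+/+ mice, beside 14.7% of all genes. These were Tnf, Tnfsf14, Tnfsf10, Tnfrsf1a, Tnfrsf1b, Cd40, Tnfrsf4, Tnfrsf11a and Tnfrsf13b. For 3 members (10.3%), namely Tnfrsf12a, Tnfrsf22 and Tnfrsf23, both lay above, beside 19.0% of all genes. The median difference, Usp25-/- minus Usp25+/+ on the log2(FPKM + 1) scale used throughout, was -0.13 over the members, -0.34 over the ligands and -0.11 over the receptors, against 0.03 over all genes. Differences were negative for 16 members (55.2%) and positive for 13, beside 46.4% negative over all genes.

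Mouse WT-139 held the highest value for 16 of the 29 members (55.2%), against 29.7% of all genes. Without it, 14 members (48.3%) were lower and 8 (27.6%) higher in both Usp25-/- mice than in WT-140, beside 37.2% and 35.7% of all genes, the median was -0.12 (-0.01 over all genes), and limma called 0 members, with 5 at an unadjusted p under 0.05 beside 656 genes or 5.6% of all. Without WT-140 in its place, limma called 3 of 28 tested members, beside 1.38% of all genes: Tnf, Fas and Tnfrsf23. The members' median was then -0.32, against 0.10 over all genes. When the 12103 genes were kept for that fit, Tnf (limma's adjusted p 0.0577) and Fas (0.0518) missed the threshold and Tnfrsf23 (0.0368) passed it. In such fits the lone Usp25+/+ mouse is assumed to vary like the Usp25-/- mice. The smallest p that an exact two-sided permutation test can give for 1 gene in this design is 0.333, and limma's p-values cover only how these 4 animals differ.

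**Figure D1:**
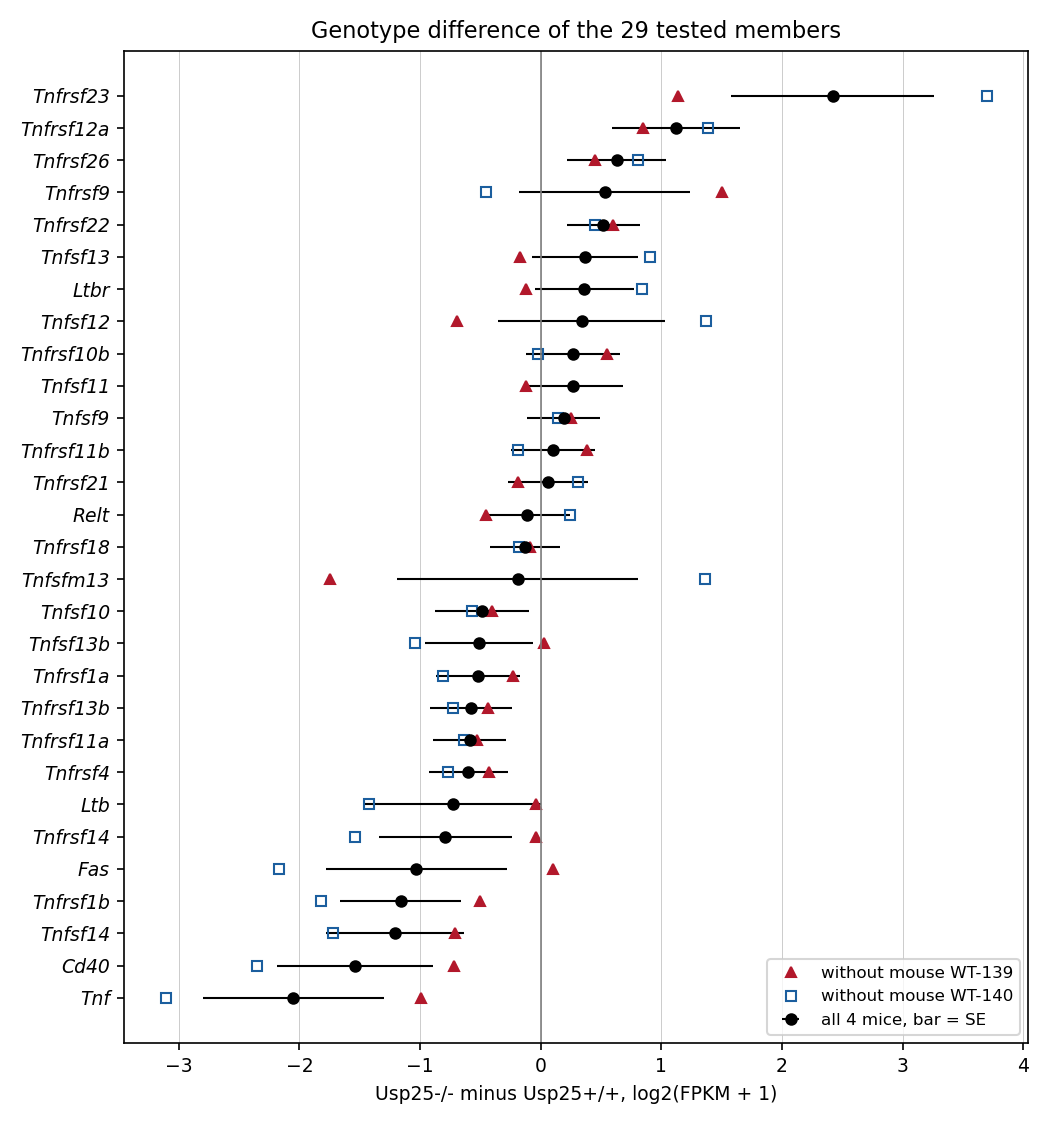
The difference Usp25-/- minus Usp25+/+ in log2(FPKM + 1) is plotted on the horizontal axis for each of the 29 tested members, as a black point with its standard error for all 4 mice, a red triangle without WT-139 and an open blue square without WT-140 (Tnfsf11 has no square because it was not tested there). Tnf runs from -3.11 to -0.99 and Tnfrsf23 from 1.14 to 3.70 between these 2 fits, while Fas moves from -2.17 to 0.10.

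Tnf (protein-coding, mm9 chr17:35336326-35338952, minus strand), the founding ligand and the target of anti-TNF treatment, had the lowest difference of all tested members. The Usp25+/+ mice had 305 and 69.2 FPKM of it and the Usp25-/- mice 43.7 and 27.1 FPKM, that is 187 ± 167 against 35.4 ± 11.8 FPKM (SD, n = 2 mice per genotype). On the log2 scale the difference was -2.05 ± 0.75 (SE), and limma's adjusted p was 0.968. Both Usp25-/- mice lay below both Usp25+/+ mice, and WT-139 was 4.41 times the next mouse. Without WT-139 the difference was -0.99, and without WT-140 it was -3.11, where limma's adjusted p was 0.0484. Tnf made up 78.5% and 34.3% of the summed ligand FPKM in the Usp25+/+ mice and 30.7% and 20.4% in the Usp25-/- mice. Summed without Tnf, the ligands stood at 83.5 and 133 against 98.6 and 106 FPKM, with both Usp25-/- mice between the Usp25+/+ mice. Tnf was the most abundant ligand in 3 of 4 mice and ranked behind Tnfsf13 in KO-850. The ligand sums include Tnfsf12, Tnfsf13 and Tnfsfm13, a read-through transcript that overlaps both. Together these gave 30.6 and 101 against 64.0 and 70.4 FPKM. How their reads were shared out is uncertain, and the shares, the sums and the rank against Tnfsf13 rest on it.

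The neutrophil markers shared the peak in WT-139: all 9 genes of that list were highest there. Among the other 3 mice the order differed, since their neutrophil sum was lowest in WT-140 (713 FPKM), where Tnf was highest. Markers of monocytes and macrophages, well-known producers of TNF, did not share 1 order. Their sum of 16741 and 40846 against 33568 and 33998 FPKM was mostly Lyz2 (12613 and 38922 against 31444 and 32571 FPKM). Cd14 (3392 and 673 against 1493 and 637 FPKM), Csf1r (96.2 and 52.8 against 47.3 and 48.0 FPKM) and Adgre1 were highest in WT-139, 3 of the 8 markers. Of the 8, only Csf1r and Adgre1 were lower in both Usp25-/- mice, as Tnf was. Cd68 (333 and 874 against 331 and 482 FPKM), Mrc1 and Fcgr1 were highest in WT-140, as Lyz2 was, and Ccr2 in KO-850. The median of the 8 markers was 145 and 151 against 119 and 119.7 FPKM. The part of either cell type in the values of Tnf, Tnfrsf1b and Cd40, which all peak in WT-139, was not tested.

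Because Tnf and its receptor Tnfrsf1b had lower values in both Usp25-/- mice and were highest in WT-139, as was Fas, the 250 bases before their start sites are shown, together with those of Tnfrsf9, which holds matches to all 3 motifs searched. The sequences are from RefSeq's promoter table (GRCm38.p6) and were placed by an exact match on mm9. Capitals mark matches to the NF-kappaB consensus (10 bases, where overlapping matches run together), to TGANTCA (AP-1) or to TTCNNNGAA (a site of STAT factors, GAS), on either strand.
Tnf, chr17:35338953-35339202, minus strand: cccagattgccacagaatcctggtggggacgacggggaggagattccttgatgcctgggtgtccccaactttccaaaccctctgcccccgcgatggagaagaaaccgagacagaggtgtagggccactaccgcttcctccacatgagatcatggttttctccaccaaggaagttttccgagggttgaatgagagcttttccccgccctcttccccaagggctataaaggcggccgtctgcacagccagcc
Tnfrsf1b, chr4:144836774-144837023, minus strand: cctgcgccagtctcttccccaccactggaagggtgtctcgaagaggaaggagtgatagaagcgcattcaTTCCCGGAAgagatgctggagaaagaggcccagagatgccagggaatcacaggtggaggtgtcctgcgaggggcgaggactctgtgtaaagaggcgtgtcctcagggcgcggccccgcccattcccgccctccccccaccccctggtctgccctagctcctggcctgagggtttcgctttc
Fas, chr19:34364899-34365148, plus strand: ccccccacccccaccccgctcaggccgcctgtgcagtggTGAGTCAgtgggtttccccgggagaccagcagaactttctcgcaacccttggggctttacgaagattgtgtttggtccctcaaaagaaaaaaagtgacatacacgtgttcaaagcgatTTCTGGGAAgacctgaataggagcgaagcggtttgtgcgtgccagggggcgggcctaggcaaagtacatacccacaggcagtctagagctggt
Tnfrsf9, chr4:150301858-150302107, plus strand: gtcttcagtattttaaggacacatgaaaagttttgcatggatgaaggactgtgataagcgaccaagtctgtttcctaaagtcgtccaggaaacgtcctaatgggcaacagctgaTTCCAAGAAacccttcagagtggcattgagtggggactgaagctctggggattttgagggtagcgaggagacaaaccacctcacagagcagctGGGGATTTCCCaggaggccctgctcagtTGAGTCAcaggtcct
The Tnf window held none of the 3 motifs, which says only that these letters are not in these bases. In Fas the AP-1 match began 211 bases and the GAS match 93 bases before the start, and in Tnfrsf1b a GAS match began 181 bases before it. The RefSeq start of Tnfrsf9 lies inside the gene as Gencode draws it on mm9 (chr4:150288671-150320211). Of 40 promoters that RefSeq lists for 36 of the members, 3 (7.5%) held the NF-kappaB consensus, 6 (15.0%) AP-1 and 8 (20.0%) GAS. The shares among all 32851 promoters of the table were 3.9%, 6.75% and 7.02%. The members with an NF-kappaB match were Ltb, Tnfrsf8 and Tnfrsf9, and those with a GAS match were Fas, Lta, Ltb, Tnfrsf1a, Tnfrsf1b, Tnfrsf9, Tnfrsf18 and Tnfrsf25. No entry was found for Tnfrsf10b, Tnfsf4, Tnfrsf26, Tnfrsf22, Tnfsf9, Cd40lg, Cd70, Tnfrsf11b, Tnfsf12 and Cd40.

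Tnf lies between the lymphotoxin genes in the major histocompatibility region, in a cluster of 10.9 kb on chromosome 17 (mm9, chr17:35331384-35342296). Its neighbours did not share its pattern in all mice. Ltb, the membrane-bound lymphotoxin chain that shapes lymphoid tissue, stood at 12.1 and 4.02 against 1.73 and 7.81 FPKM, with a log2 difference of -0.73 ± 0.73 (SE) and overlapping groups. Its sign turned without KO-826 (0.12). Lta, the secreted lymphotoxin, stood at 0.645 and 0.248 against 0.799 and 0 FPKM and was too low to test. Lst1, a leukocyte gene next to Ltb that is no member, stood at 78.8 and 26.2 against 23.5 and 35.5 FPKM and was also highest in WT-139. Tnfsf14 (LIGHT), a ligand of the lymphotoxin beta receptor that lies elsewhere on chromosome 17, stood at 8.82 and 3.87 against 0.930 and 3.62 FPKM. The groups did not overlap, yet KO-850 lay close under WT-140, and the log2 difference was -1.21 ± 0.57 (SE). Limma's adjusted p was 0.968. The difference was -0.71 without WT-139 and -0.58 without KO-826.

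**Figure D2:**
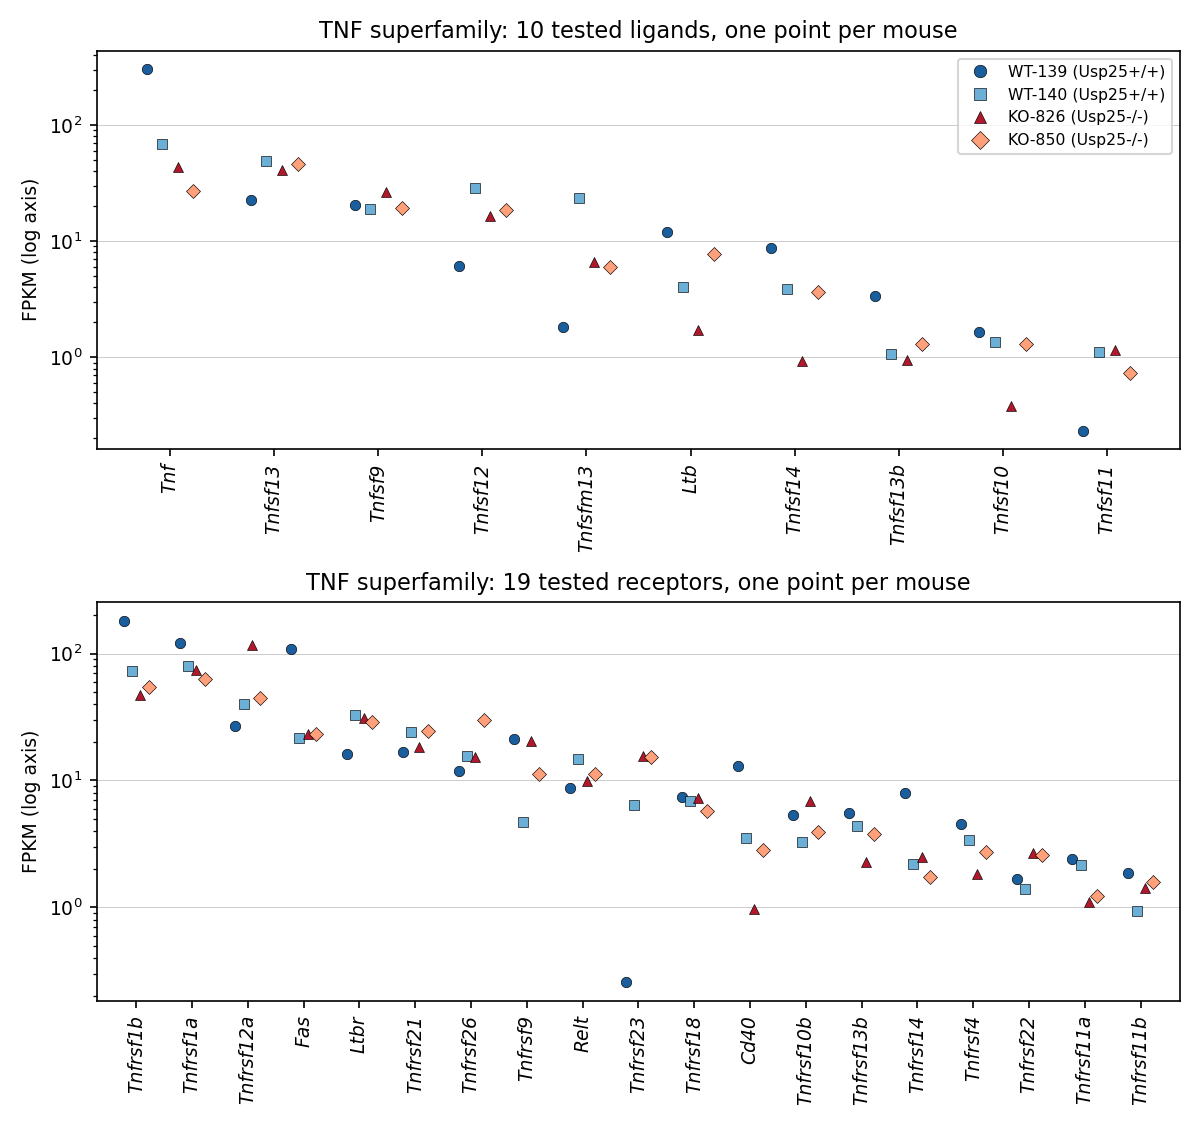
FPKM on a log axis is plotted for each tested member, the 10 ligands above and the 19 receptors under them, with 1 point per mouse (blue for Usp25+/+, red and orange for Usp25-/-). WT-139 is the highest point for 16 of the 29 members, and the 2 Usp25-/- points lie under both blue points for 9 and over both for 3.

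The death ligands were scarce. Tnfsf10 (TRAIL) stood at 1.65 and 1.36 against 0.384 and 1.31 FPKM, where KO-850 was just under WT-140, and the log2 difference of -0.49 ± 0.39 (SE) was -0.12 without KO-826. Fasl, the ligand of Fas, was below 1 FPKM in every mouse, and Tnfsf15 exceeded it only in WT-139 (2.39 FPKM). Of the costimulatory ligands only Tnfsf9, which engages Tnfrsf9 on activated T cells, was tested. It stood at 20.5 and 19.0 against 26.4 and 19.5 FPKM with overlapping groups (log2 difference 0.19 ± 0.30, SE).

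Tnfsf13 (APRIL) and Tnfsf13b (BAFF) sustain B cells and plasma cells. Tnfsf13 stood at 22.6 and 49.0 against 41.0 and 45.8 FPKM (log2 difference 0.37 ± 0.44, SE), lowest in WT-139. Tnfsf13b stood at 3.37 and 1.07 against 0.950 and 1.30 FPKM (-0.51 ± 0.45, SE), highest in WT-139. Both changed sign without that mouse, to -0.17 and 0.03. Tnfsfm13 is a read-through transcript that joins Tnfsf12 and Tnfsf13, and it stood at 1.83 and 23.4 against 6.56 and 6.00 FPKM. The Usp25-/- mice lay between the Usp25+/+ mice, and the log2 difference of -0.19 ± 1.00 (SE) became -1.75 without WT-139 and 1.36 without WT-140. Tnfsf12 (TWEAK), which acts on epithelium and stroma in repair, was likewise lowest in WT-139 and highest in WT-140, at 6.17 and 28.7 against 16.4 and 18.6 FPKM. In RefSeq's annotation (GRCm38.p6) 100% of the span of Tnfsf12 and of Tnfsf13 lies inside Tnfsfm13, so how their reads were shared out is uncertain. The 3 genes summed to 30.6 and 101 against 64.0 and 70.4 FPKM, again with both Usp25-/- mice between the Usp25+/+ mice. Tnfsf11 (RANKL), the ligand that drives osteoclasts and lymph node formation, stood at 0.233 and 1.10 against 1.16 and 0.738 FPKM with overlapping groups.

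The receptors of TNF itself were the most abundant receptors of the family in 3 of 4 mice, and Tnfrsf12a led in KO-826. Tnfrsf1a, which carries a death domain and is found on most cells, stood at 121 and 80.3 against 74.8 and 62.9 FPKM (log2 difference -0.52 ± 0.35, SE, and -0.23 without WT-139). Tnfrsf1b, which lacks a death domain and is found mainly on blood and endothelial cells, stood at 182 and 72.5 against 46.9 and 55.0 FPKM, or 127 ± 77.8 against 51.0 ± 5.75 FPKM (SD, n = 2). On the log2 scale its difference was -1.16 ± 0.50 (SE), limma's adjusted p was 0.968, and the value was -0.50 without WT-139. For both receptors the Usp25-/- mice lay under the Usp25+/+ mice, with WT-139 on top. Tnfrsf1b exceeded Tnfrsf1a in WT-139 only, at a ratio of 1.51, against 0.902 in WT-140 and 0.627 and 0.875 in KO-826 and KO-850. The ratio of Tnf to the sum of both receptors was 1.01 and 0.453 against 0.359 and 0.230. Tnf and both receptors were each lower in both Usp25-/- mice, so this ratio reuses those values, and no background was counted for ratios.

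Ltbr, the lymphotoxin beta receptor, was nearly level apart from WT-139, at 16.3 and 32.7 against 31.3 and 28.7 FPKM. Its log2 difference of 0.36 ± 0.41 (SE) became -0.12 without that mouse. Tnfrsf14 (HVEM), a receptor of Tnfsf14 on leukocytes and epithelium, stood at 8.00 and 2.18 against 2.48 and 1.74 FPKM. Its difference of -0.79 ± 0.55 (SE) was -0.04 without WT-139.

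Fas (mm9 chr19:34365149-34402260), the death receptor that shapes the lifespan of lymphocytes, was high in a single mouse. It stood at 108 FPKM in WT-139, 4.62 times the next mouse, and at 21.7 FPKM in WT-140 against 23.2 and 23.4 FPKM in KO-826 and KO-850. On the log2 scale the difference was -1.03 ± 0.75 (SE) with all mice, 0.10 without WT-139, and -2.17 without WT-140, where limma's adjusted p was 0.0435. The neutrophil sums given above share the peak in WT-139, and their part in the Fas values was not tested. Tnfrsf10b, the receptor of TRAIL with a death domain, stood at 5.32 and 3.28 against 6.94 and 3.92 FPKM. Tnfrsf21 (DR6), a death domain receptor known from nerve and immune cells, stood at 16.8 and 24.2 against 18.4 and 24.4 FPKM, with a log2 difference of 0.06 ± 0.33 (SE). Groups overlapped for both, and neither kept its sign in every fit with 1 mouse left out.

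Cd40 (mm9 chr2:164881127-164898448), through which T cells activate B cells, macrophages and dendritic cells, had the lowest difference among the receptors. It stood at 13.0 and 3.53 against 0.962 and 2.84 FPKM, or 8.28 ± 6.71 against 1.90 ± 1.32 FPKM (SD, n = 2), and its groups did not overlap. On the log2 scale the difference was -1.54 ± 0.65 (SE), limma's adjusted p was 0.968, and the value was -0.72 without WT-139. Its ligand Cd40lg lay between 0.333 and 0.467 FPKM. Of the T cell receptors for costimulation, Tnfrsf4 (OX40) stood at 4.55 and 3.37 against 1.83 and 2.73 FPKM (-0.60 ± 0.33, SE) without overlap, and at -0.43 without WT-139. Tnfrsf18 (GITR) was nearly even, at 7.44 and 6.89 against 7.23 and 5.71 FPKM (-0.13 ± 0.29, SE). Summed T cell markers were 17.8 and 20.9 against 17.0 and 34.3 FPKM, highest in KO-850, which ranked under both Usp25+/+ mice for Tnfrsf4 and Tnfrsf18. The single markers did not share 1 order. Cd4 was lower in both Usp25-/- mice, as Tnfrsf4 was, at 1.86 and 1.70 against 0.959 and 0.820 FPKM. Lat was higher in both, at 4.08 and 6.83 against 6.95 and 9.51 FPKM. The part of T cells in these receptor values was not tested.

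Tnfrsf9 (CD137), induced on activated T and myeloid cells, turned with the mouse left out. It stood at 21.1 and 4.73 against 20.6 and 11.2 FPKM, so the Usp25-/- mice lay between the Usp25+/+ mice. The log2 difference of 0.53 ± 0.71 (SE) became 1.50 without WT-139 and -0.45 without WT-140. The ratio of Tnfrsf9 to its ligand Tnfsf9 was 1.03 and 0.249 against 0.780 and 0.573. Tnfrsf13b (TACI), a receptor of BAFF and APRIL, was the only B cell receptor of the family that was tested, at 5.55 and 4.37 against 2.27 and 3.81 FPKM (-0.58 ± 0.34, SE, and -0.30 without KO-826). Its groups did not overlap. Summed B cell markers were 5.18 and 7.28 against 4.22 and 23.5 FPKM, and in KO-850 Cd79a (8.06 FPKM) and Cd79b (7.21 FPKM) were the largest of them. Of the 8 markers, 3 stayed below 1 FPKM in all mice. The part of B cells in the Tnfrsf13b values was not tested.

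Tnfrsf11a (RANK), the receptor of RANKL, was low but separate between the genotypes, at 2.39 and 2.14 against 1.10 and 1.24 FPKM. Its log2 difference of -0.59 ± 0.30 (SE) ranged only from -0.64 to -0.53 when mice were left out. Tnfrsf11b (osteoprotegerin), the soluble decoy for RANKL, stood at 1.85 and 0.929 against 1.43 and 1.59 FPKM with overlapping groups. Tnfrsf12a (Fn14, mm9 chr17:23812414-23814416), the receptor of TWEAK that injured epithelium and stroma display, was higher in both Usp25-/- mice. It stood at 27.0 and 39.7 against 117 and 44.7 FPKM, or 33.4 ± 8.99 against 81.0 ± 51.3 FPKM (SD, n = 2), and was the most abundant receptor in KO-826. On the log2 scale the difference was 1.12 ± 0.53 (SE), limma's adjusted p was 0.968, and the value was 0.44 without KO-826. General epithelial markers were higher in the same mice: their sums were 798 and 716 against 3223 and 1241 FPKM, and all 6 were higher in both Usp25-/- mice. Their part in the Tnfrsf12a values was not tested.

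**Figure D3:**
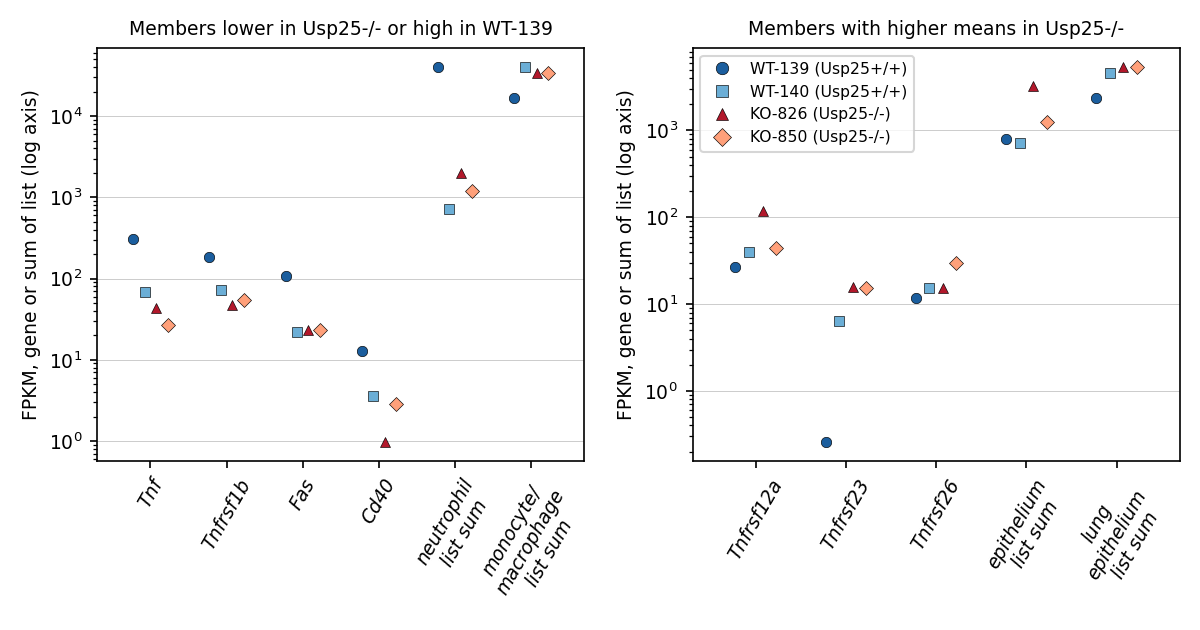
FPKM on a log axis is plotted by mouse for 4 members beside the summed neutrophil and the summed monocyte and macrophage markers (left), and for 3 members beside the summed epithelial and lung epithelial markers (right). Tnf, Tnfrsf1b, Fas, Cd40 and the neutrophil sum are highest in WT-139, and Tnfrsf12a and the epithelial sum are highest in KO-826.

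Tnfrsf22, Tnfrsf23 and Tnfrsf26 sit side by side in 78.2 kb of chromosome 7 (mm9, chr7:150793568-150871777). The first 2 encode decoy receptors for TRAIL that lack a death domain, and mice have them where humans do not. Tnfrsf23 (chr7:150851714-150871777, minus strand) had the highest difference of all tested members. It stood at 0.256 and 6.42 against 15.6 and 15.2 FPKM, or 3.34 ± 4.36 against 15.4 ± 0.259 FPKM (SD, n = 2). On the log2 scale the difference was 2.42 ± 0.84 (SE), and limma's adjusted p was 0.968. Both Usp25-/- mice lay above both Usp25+/+ mice, and WT-139 was far below the rest. The sums of lung epithelial markers were also lowest in WT-139, at 2397 and 4568 against 5442 and 5453 FPKM, but the single markers did not share 1 order. Sftpa1, Scgb1a1, Scgb3a2 and Napsa were lowest in KO-826, and the other genes of the list in WT-139. Scgb1a1 was highest in WT-139, at 741 and 462 against 219 and 567 FPKM. The part of lung epithelium in the Tnfrsf23 values was not tested. Without WT-139 the difference was 1.14, and without WT-140 it was 3.70, where limma's adjusted p was 0.0300.

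Tnfrsf22 stood at 1.66 and 1.39 against 2.67 and 2.58 FPKM, also without overlap (0.52 ± 0.30, SE), and its difference ranged from 0.45 to 0.60 when mice were left out. Unlike Tnfrsf23 it was not low in WT-139, and the ratio of Tnfrsf23 to Tnfrsf22 was 0.155 there against 4.62 in WT-140, 5.84 in KO-826 and 5.89 in KO-850. Tnfrsf26 stood at 11.8 and 15.5 against 15.2 and 30.1 FPKM (0.63 ± 0.41, SE), where KO-826 lay just under WT-140, and the difference was 0.16 without KO-850 and 1.10 without KO-826. Summed, the 3 genes gave 13.7 and 23.3 against 33.4 and 47.9 FPKM. Osbpl5, the gene next to Tnfrsf23 and no member, was also lowest in WT-139 and higher in both Usp25-/- mice, at 1.80 and 2.67 against 2.94 and 3.55 FPKM. On the other side of the cluster Cars, the gene next to Tnfrsf26, stood at 11.2 and 8.34 against 15.7 and 9.99 FPKM, with overlap.

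Tnfsfm13 had no Gencode entry under that symbol, so its overlap with Tnfsf12 and Tnfsf13 is not part of the following comparison of 45 members. Among these, Tnfrsf22 and Tnfrsf23 were the only pair whose Gencode transcripts shared runs of 50 identical bases. A read from one can fit the other, and both values are uncertain to that extent. In all, 719 such windows were shared, 17.1% of those of Tnfrsf22 and 21.5% of those of Tnfrsf23. In coding sequence alone they came to 58 windows of 1171 in Tnfrsf22 and of 511 in Tnfrsf23. The longest was 102 bases and is shown because a read inside it cannot be assigned to either gene.
Tnfrsf22 and Tnfrsf23, shared coding run: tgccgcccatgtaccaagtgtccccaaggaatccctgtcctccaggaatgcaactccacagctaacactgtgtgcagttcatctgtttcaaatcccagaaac
The FPKM values of the pair summed to 1.91 and 7.81 against 18.2 and 17.8 FPKM. Relt, a receptor of the family with no death domain, stood at 8.73 and 14.7 against 9.85 and 11.2 FPKM with overlapping groups.

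The other 17 members were below the threshold for testing and lay between 0 and 2.39 FPKM. In 12 of them no mouse reached 1 FPKM: Lta, Fasl, Cd40lg, Cd70, Tnfsf4, Tnfsf18, Cd27, Tnfrsf13c, Edar, Ngfr, Eda2r and Tnfrsf19. Cd70 was listed at 0 in all mice. In the other 5 a single mouse did: Tnfsf8 (1.06 FPKM), Tnfsf15 and Tnfrsf8 (1.23 FPKM) in WT-139, and Tnfrsf17 (1.33 FPKM) and Tnfrsf25 (1.03 FPKM) in KO-826. Several of these act on T and B cells, as do Tnfrsf4, Tnfrsf18, Tnfrsf9 and Tnfrsf13b, which were tested. T cell markers summed to 17.8 and 20.9 against 17.0 and 34.3 FPKM. B cell markers summed to 5.18 and 7.28 against 4.22 and 23.5 FPKM. The part of these cells in the low values was not tested.

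The genes that carry the signal of these receptors came from 5 lists of 60 genes, 59 of which were in the table and tested. Limma called 0 of 59, and 2, Traf4 and Socs3, were at an unadjusted p under 0.05, beside 3.3% of all genes. For 14 (23.7%) both Usp25-/- mice were lower and for 4 (6.78%) both were higher, beside 14.7% and 19.0% of all genes. The median log2 difference was -0.25, against 0.03 over all genes. Differences were negative for 44 genes (74.6%) and positive for 15, beside 46.4% negative over all genes. WT-139 held the highest value for 40 of the 59 (67.8%), and without it 28 of 57 (49.1%) were negative, with a median of 0.02, beside 51.5% and -0.01 over all genes. Without WT-140 limma called 3, beside 1.38% of all genes: Birc3, Traf1 and Sod2. Sod2, a mitochondrial enzyme against superoxide that was chosen after its values were seen, stood at 243 and 34.8 against 38.6 and 33.3 FPKM, high in WT-139.

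In each list the share lower is to be read against 14.7% and the share higher against 19.0% of all genes. Of 5 genes for ligand shedding, 1 (20.0%) was lower and 1 (20.0%) higher without overlap. Adam17, the protease that releases TNF, stood at 54.0 and 22.0 against 20.3 and 26.8 FPKM. Rhbdf2, which escorts Adam17 to the surface of myeloid cells, was lower in both Usp25-/- mice, at 33.6 and 30.7 against 27.1 and 22.4 FPKM (log2 difference -0.37 ± 0.29, SE, and -0.24 without KO-850). Its relative Rhbdf1, found mainly outside blood cells, was higher in both, at 4.97 and 7.01 against 13.2 and 8.71 FPKM (0.76 ± 0.35, SE, and 0.49 without KO-826).

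Of 17 adaptors and ubiquitin enzymes, 6 (35.3%) were lower and 1 (5.88%) higher without overlap. Tnfaip3 (A20), a ubiquitin-editing inhibitor that TNF induces, stood at 582 and 158 against 142 and 109.5 FPKM (-1.28 ± 0.67, SE, and -0.34 without WT-139). Birc3, a ubiquitin ligase of the receptor complex, stood at 175 and 22.1 against 24.6 and 22.3 FPKM, so only WT-139 stood out, and the difference of -1.38 ± 0.95 (SE) was 0.08 without that mouse. Traf1, an adaptor that NF-kappaB induces, had the same high value in WT-139 but the lowest one in WT-140, at 61.3 and 3.17 against 8.17 and 8.91 FPKM. Ripk1, the kinase that divides survival from death signals, stood at 29.6 and 21.8 against 15.9 and 17.1 FPKM without overlap (-0.59 ± 0.30, SE, and -0.38 without WT-139). Traf2, the adaptor shared by most of these receptors, stood at 6.93 and 7.16 against 6.39 and 4.43 FPKM, lower in both Usp25-/- mice (-0.34 ± 0.31, SE, and -0.12 without KO-850). Traf3, which restrains the non-canonical NF-kappaB branch used by Cd40 and Ltbr, was level in 3 mice at 3.13 to 3.31 FPKM and stood at 8.98 FPKM in WT-139. Traf4, an adaptor present in epithelia, was the 1 higher gene, at 8.90 and 8.63 against 20.9 and 14.0 FPKM (0.89 ± 0.32, SE, limma's adjusted p 0.968). When single mice were left out it ranged from 0.62 (KO-826) to 1.17 (KO-850). The epithelial marker sums given above were higher in the same mice, and their part in the Traf4 values was not tested.

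**Figure D4:**
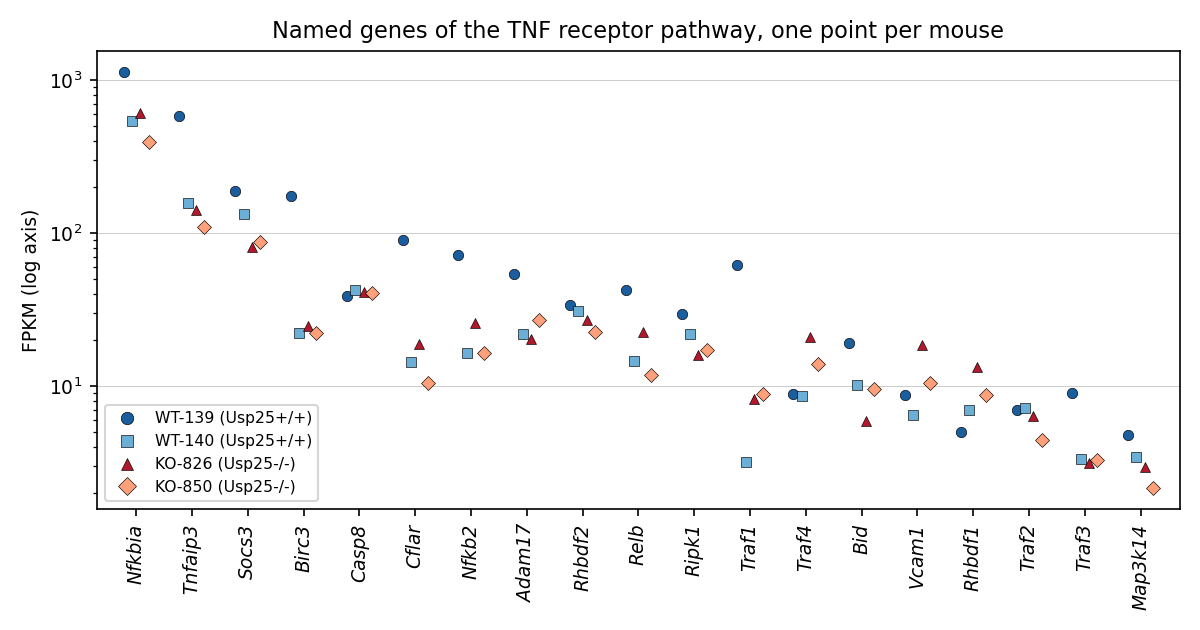
FPKM on a log axis is plotted by mouse for the 19 named genes of the signalling lists (blue for Usp25+/+, red and orange for Usp25-/-). WT-139 lies far above the other 3 mice for Tnfaip3, Birc3, Cflar and Traf1, while Socs3 is lower and Traf4 higher in both Usp25-/- mice.

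Of 8 genes of the death branch, 1 (12.5%) was lower without overlap. This was Bid, which links Casp8 to mitochondria, at 19.1 and 10.1 against 5.86 and 9.49 FPKM (-0.81 ± 0.42, SE, and -0.38 without WT-139). Casp8 was even across the mice at 38.9 and 42.1 against 41.3 and 40.5 FPKM, while its inhibitor Cflar (FLIP) stood at 89.3 and 14.4 against 18.8 and 10.5 FPKM, high in WT-139 alone.

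Of 17 kinases and NF-kappaB genes, 3 (17.6%) were lower and none higher without overlap. Map3k14 (NIK), the kinase of the non-canonical branch, was 1 of the 3, at 4.75 and 3.45 against 2.97 and 2.15 FPKM (-0.52 ± 0.32, SE, and -0.33 without WT-139). Nfkb2, Relb and Nfkbia, which NF-kappaB itself induces, overlapped between genotypes and were highest in WT-139: Nfkb2 stood at 71.5 and 16.4 against 25.8 and 16.5 FPKM. Relb stood at 42.2 and 14.5 against 22.4 and 11.7 FPKM, and Nfkbia at 1133 and 542 against 605 and 391 FPKM.

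Of 12 genes that TNF induces, 3 (25.0%) were lower and 2 (16.7%) higher without overlap. Socs3, an inhibitor of cytokine receptors, stood at 189 and 132 against 81.3 and 86.7 FPKM (-0.90 ± 0.34, SE, limma's adjusted p 0.968). Vcam1, an adhesion molecule of endothelium, had higher values in both Usp25-/- mice, at 8.75 and 6.41 against 18.5 and 10.4 FPKM (0.81 ± 0.38, SE, and 0.42 without KO-826). Summed endothelial markers went another way, at 75.8 and 158 against 57.7 and 111 FPKM, lowest in KO-826, where Vcam1 was highest. Of the 6 markers, 1 was lower and 0 were higher in both Usp25-/- mice. The part of endothelium in the Vcam1 values was not tested. The ratio of Tnf to Tnfaip3 was 0.525 and 0.437 in the Usp25+/+ mice and 0.309 and 0.247 in the Usp25-/- mice. Tnf and Tnfaip3 were each lower in both Usp25-/- mice, so the ratio reuses those values and is no separate result. How often ratios of other genes keep the genotypes apart was not counted.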

How the data were processed

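Polyadenylated RNA was selected with oligo dT, per the labels' protocols. The authors deposited 1 table of FPKM values with a column for each mouse. Bowtie 0.12.2 and the build mm9 are named, per the submitters' processing notes. The tool behind FPKM is not given in the sources used here, nor are its annotation, strandedness and read totals, so depth is unknown and no counting interval is given. A gene listed at 0 may be unexpressed or not estimated.

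Symbols turned into dates by a spreadsheet (27) were left out, which left 24394 genes, and 12103 of them at 1 FPKM or more in at least 2 mice were tested. Values were taken as log2(FPKM + 1), which makes the change of a low gene look smaller than it was. Genotypes were compared by limma 3.58.1 in R 4.3.3, two-sided, with a mean-variance trend and Benjamini-Hochberg adjustment over all genes tested at 0.05. The labels give no pairing or batch, so the fit has no block, and they do not name litters. Tables, sequences and plots used Python 3.11.15 with pandas 2.3.3 and matplotlib 3.10.9.

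The members, the signalling lists and the 14 marker lists were chosen with earlier results of these data known. All tested members are named with each mouse's value. Of the signalling genes, 14 chosen names and up to 2 with the smallest p in each list are named, 19 in all, and Sod2 was added after its values were seen. Gencode positions on mm9 were found for 45 of 46 members, all but Tnfsfm13, and RefSeq promoters (GRCm38.p6) for 36. Differences of groups without overlap are descriptions and were not tested. Other pseudocounts, filters, scalings and variance models were tried, and each mouse was left out in turn.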

Additional observations from a re-analysis of the deposited data

How the results depend on the processing

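With 4 mice in all, 15 of the 29 tested members changed sign when 1 mouse was left out. The number of members called by limma ranged from 0 to 3 when each mouse was left out, and so did that of the signalling genes; the 3 calls of each came without mouse WT-140. Leaving that mouse out but keeping the 12103 genes was an alternative chosen after seeing the data. The log2 difference there was -3.11 for Tnf, -2.17 for Fas and 3.70 for Tnfrsf23, as in the fit that filtered again. The ligands' median ranged from -0.57 to -0.12, members lower without overlap from 11 to 16 (22.6% to 37.2% of all genes in the same fits) and members higher without overlap from 5 to 10 (30.3% to 46.1% of all genes). The median of all members ranged from -0.32, without WT-140, to -0.10. Members that changed sign when a mouse was left out ranged as follows on the log2 scale: Fas from -2.17 to 0.10, Ltb from -1.57 to 0.12, Ltbr from -0.12 to 0.84, Relt from -0.45 to 0.24, Tnfrsf10b from -0.08 to 0.61, Tnfrsf11b from -0.19 to 0.38, Tnfrsf18 from -0.28 to 0.01, Tnfrsf21 from -0.19 to 0.31, Tnfrsf9 from -0.45 to 1.50, Tnfsf11 from -0.12 to 0.43, Tnfsf12 from -0.69 to 1.37, Tnfsf13 from -0.17 to 0.91, Tnfsf13b from -1.04 to 0.03, Tnfsf9 from -0.01 to 0.40 and Tnfsfm13 from -1.75 to 1.36. Among the named signalling genes, Adam17 ranged from -1.18 to 0.08, Birc3 from -2.85 to 0.08, Casp8 from -0.04 to 0.07, Nfkb2 from -1.74 to 0.32, Relb from -1.32 to 0.15 and Traf1 from -2.71 to 1.19. Under the other alternatives (pseudocount, filter, scaling, variance model) all 227 values of the members kept their direction and 0 members were called, with 1 to 3 at an unadjusted p under 0.05. Sizes moved most for low genes at a pseudocount of 0.1: Tnfsf10 from -0.49 to -0.96, Tnfsf11 from 0.27 to 0.70, Tnfrsf11a from -0.59 to -0.90, Tnfrsf22 from 0.52 to 0.75 and Tnfrsf11b from 0.10 to 0.18, while Tnfsfm13 went from -0.19 to -0.08. Tnfrsf21 went from 0.06 to 0.03 under median-of-ratios scaling. Casp8, at 0.01, became -0.00 after rescaling to a common total and -0.02 after median-of-ratios scaling. Without a filter 45 members were tested, of which 12 were lower and 4 higher without overlap, some of them under 1 FPKM in all mice. The share over all 21761 genes of that fit was not counted, so these counts have no background.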
